A study of Rattus norvegicus with 6 samples.

Results

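The RNA 7SK is a small nuclear RNA, and the rat gene models carry many copies of its family, which the deposited transcript table lists under the Rfam family name RF00100. A copy was taken when its gene name was RF00100 and its transcript had an Ensembl identifier (ENSRNOT), which gave 208 copies among 28875 annotated transcripts and 70376 transcripts in all. Another 15 transcripts named RF00100 were assembled from the reads by the authors, were 320 to 22488 bases long, reached a mean of at most 3.80 FPKM and were not counted as copies. The libraries came from lungs of Sprague-Dawley rats that were 7 weeks old at the start, before they were divided into groups. The pulmonary fibrosis (PF) model group was given a single dose of bleomycin, a cytotoxic antibiotic that injures the lung, at 7 mg/kg into the trachea. The control group was given saline the same way. From each group 3 rats were sequenced, which were a part of the rats treated in the study. Lungs were taken on day 28, and each rat gave 1 library of total RNA depleted of ribosomal RNA. FPKM, the number of fragments scaled by transcript length and library size, is a level per length, so levels of different copies can be set side by side.

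7SK is transcribed by RNA polymerase III. In the nucleus it is bound by LARP7 and MEPCE and, together with HEXIM proteins, holds the kinase P-TEFb (CDK9 with a cyclin T) in an inactive store. Release of P-TEFb lets paused RNA polymerase II continue into the gene body, so 7SK is known as a regulator of transcription elongation in all cell types. Mammalian genomes hold a main 7SK gene and many related copies, most of which are regarded as pseudogenes. The copies are alike in sequence, and how reads that match several copies were shared out was not given in the sources used here, so the level of any single copy is uncertain where copies share sequence.

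Lung marker genes were high in all 6 libraries, such as the surfactant protein gene Sftpc at 2410 to 4146 FPKM and the club cell gene Scgb1a1 at 4050 to 7677 FPKM. Of 5 genes taken as signs of fibrosis, only the collagen gene Col3a1 did not overlap between groups, which was so in 10.1% of all genes tested. It stood at 154 to 178 FPKM in control and 189 to 233 FPKM in model samples, a log2 ratio of 0.31. The genes Col1a1, Fn1, Spp1 and Timp1 overlapped. Spp1 was at most 0.361 FPKM in every library. The heart muscle genes Myh6, Myl7 and Tnnt2 stood at 5.11, 1.90 and 2.35 FPKM in model sample 3 and at no more than 0.0339, 0.180 and 0.453 FPKM in the other libraries. Their part in the results was not tested. Estimated reads on all transcripts, taken as deposited coverage times length over the read length of 150 bases, lay between 35778600 and 41112700 per library.

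The summed level of the 208 copies was high in all 6 libraries. It was 21123, 22451 and 17144 FPKM in control samples 1 to 3 and 19099, 18943 and 21956 FPKM in model samples 1 to 3. The 208 copies thus took 3.31% to 4.30% of all FPKM, and 0.657% to 0.864% of the estimated reads. An estimated 269816 to 326619 reads per library fell on them. The signal lay on few copies. With copies ranked by mean FPKM over the 6 libraries, the first copy held 38.0% to 51.5% of the summed FPKM of a library, the first 2 copies 66.0% to 71.1%, and the first 8 copies 98.3% to 98.8%. These 8 copies had mean levels of 462 to 8767 FPKM, and the ninth stood at 48.4 FPKM.

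**Figure D1:**
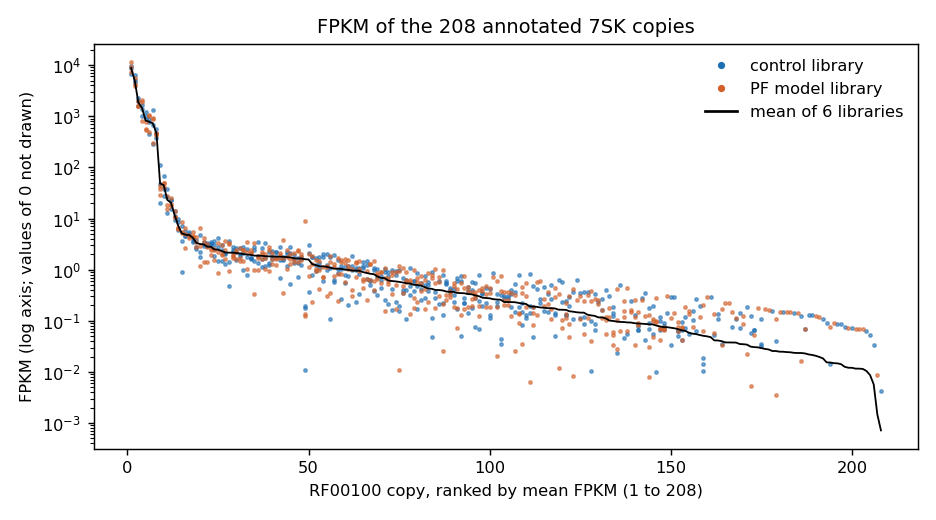
FPKM (log axis) of each of the 208 copies in each control and PF model library, with copies ranked by their mean over 6 libraries (line). The levels drop from 462 FPKM at copy 8 to 48.4 FPKM at copy 9 and end below 0.1 FPKM for 75 copies.

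The leading copy, ENSRNOT00000079055, lay on the minus strand at chr8:85480292-85480622 and was 331 bases long. Its level was 9464, 8768 and 6697 FPKM in control samples and 7263, 9102 and 11307 FPKM in model samples. Model samples were both the highest and the second lowest library, and the groups overlapped. An estimated 108301 to 172133 reads per library covered it. It lay outside annotated multi-exon genes, and the nearest one, Ick, coding for a protein kinase, lay 7598 bases away. An assembled transcript on the opposite strand overlapped the copy and was listed at 79.1 FPKM in model sample 2 and at 0 in the other libraries.

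The second copy, ENSRNOT00000090777, was 318 bases long at chrX:23467547-23467864 on the minus strand. It measured 5121, 6288 and 4626 FPKM in control and 5565, 3836 and 4293 FPKM in model samples. It lay on the same strand as, and within the span of, the gene LOC685699, whose own level was only 0.0295 to 0.355 FPKM. The third copy, ENSRNOT00000084094 at chr2:205485076-205485398 on the minus strand, lay 2784 bases from Sike1, which codes for a suppressor of IKK-epsilon. Its values were 2030.4, 2318 and 1591 FPKM in control and 1567, 2002 and 1603.5 FPKM in model samples. In both copies the groups overlapped, and control sample 2 was the highest library.

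The fourth copy, ENSRNOT00000082957 at chr17:90799609-90799914 on the minus strand, lay 2479 bases from Edaradd, an adaptor of the ectodysplasin receptor. It measured 1366, 1008 and 1661 FPKM in control and 1879, 798 and 2066 FPKM in model samples, so both its lowest and its highest library were model samples. The sixth copy, ENSRNOT00000078225 at chr17:79036022-79036339 on the plus strand, lay inside the span of Fam171a1 but on the other strand. Its values were 901, 776 and 442 FPKM in control and 1049, 1003 and 495 FPKM in model samples, with sample 3 the lowest in each group, while Fam171a1 stood at 7.79 to 11.2 FPKM.

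The fifth copy, ENSRNOT00000083070, was 338 bases long at chr18:40542094-40542431 on the plus strand, 12675 bases from Ticam2, an adaptor of Toll-like receptor 4. It was the only one of the first 8 whose groups did not overlap, which was so in 10.4% of all transcripts tested. The control samples measured 1192, 1033 and 869.7 FPKM and the model samples 767, 529 and 569.6 FPKM. All 3 model samples lay below all 3 control samples.

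The seventh and eighth copies, both on the plus strand of chromosome 1, differed in how steady they were. ENSRNOT00000082519 at chr1:246926595-246926915 measured 283, 1325 and 667 FPKM in control and 295, 942 and 876 FPKM in model samples, a 4.69-fold range with 1 low library in each group. ENSRNOT00000088275 at chr1:190338092-190338384 measured 477, 557 and 368 FPKM in control and 455, 438 and 479.5 FPKM in model samples. Its coefficient of variation (SD over mean) over the 6 libraries was 13.3%, the lowest of the 8, against 55.1% for the seventh copy. The eighth copy lay on the same strand within the span of Abca16, an ABC transporter gene that was at most 0.0526 FPKM.

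**Figure D2:**
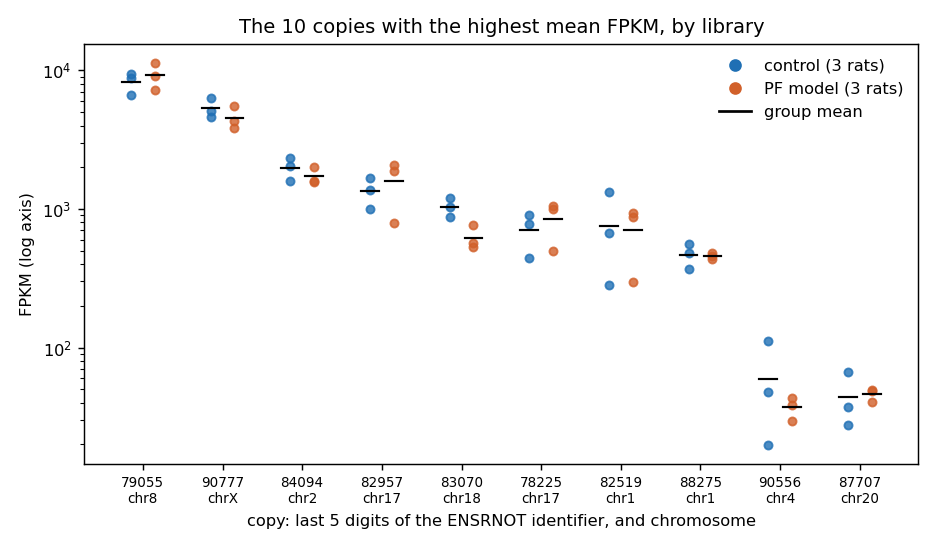
FPKM (log axis) of the 10 copies with the highest means, as points for 3 control and 3 PF model rats with group means as lines. Only the chromosome 18 copy ENSRNOT00000083070 has groups that do not overlap among these 10, against 10.4% of all transcripts tested.

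The following pair of copies was far lower. ENSRNOT00000090556 at chr4:139165424-139165742 measured 47.4, 111 and 19.9 FPKM in control and 29.5, 38.6 and 43.4 FPKM in model samples. ENSRNOT00000087707 at chr20:37370160-37370451 measured 37.0, 67.1 and 27.7 FPKM in control and 49.3, 48.7 and 40.8 FPKM in model samples. In both, control sample 2 was the highest and control sample 3 the lowest library.

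The leading copy was the highest and the chromosome X copy the second in each of the 6 libraries, and among the third to eighth copies each pair of neighbours changed places in at least 1 library. The fourth to seventh copies had means of 1463, 827, 778 and 731 FPKM with coefficients of variation of 34.0%, 31.4%, 33.1% and 55.1%, so that the ranges of neighbours overlapped.

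The summed FPKM had a coefficient of variation of 10.2% over the 6 libraries, and the 8 leading copies had one of 13.3% to 55.1% each (median 25.1%). By construction, the coefficient of variation of a sum cannot exceed that of its most variable member, although it can exceed that of a steady one. The share of the leading copy was 44.8%, 39.1% and 39.1% in control and 38.0%, 48.0% and 51.5% in model samples. The second copy held 19.6% to 29.1%, and its lowest shares were in model samples 2 and 3, where the share of the leading copy was highest. Shares add up to a whole, so a high share of 1 copy lowers the others by construction. The share of the eighth copy lay within 2.15% to 2.48%, and that of the seventh ranged from 1.34% to 5.90%.

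**Figure D3:**
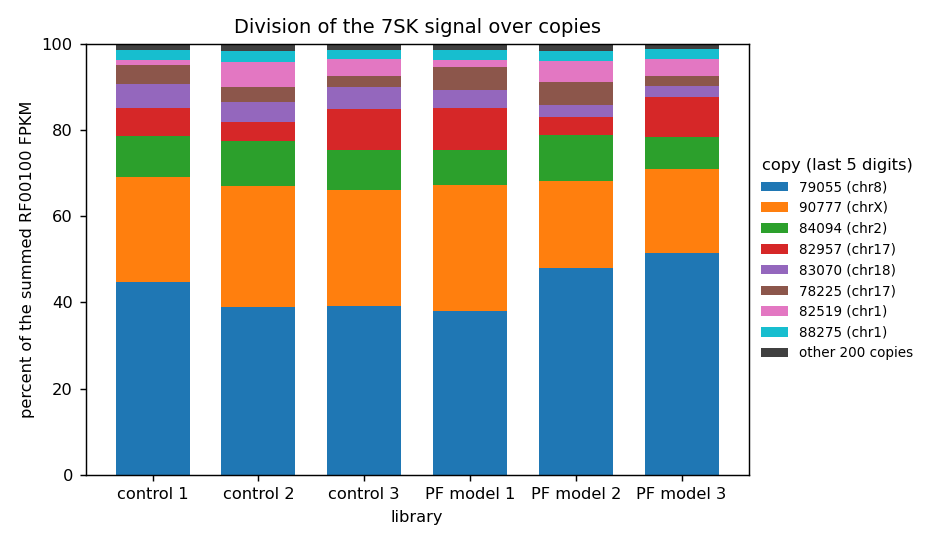
Percent of the summed RF00100 FPKM taken by each of the 8 leading copies and by the other 200 copies together, in each library. The leading chromosome 8 copy takes 38.0% to 51.5% and the other 200 copies together less than 2% of every library.

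Other families of small RNAs were set beside 7SK. The 21 annotated copies of RF00017, the signal recognition particle RNA, summed to a mean of 30452 FPKM with a coefficient of variation of 14.7%, and 38.2% of it lay on their leading copy. The 116 copies of RF00003 (U1) summed to 58139 FPKM and varied by 21.8%, and the 48 copies of RF00004 (U2) summed to 64442 FPKM and varied by 33.9%. RF00030 (RNase MRP RNA) had 1 annotated copy, at a mean of 8325 FPKM that varied by 8.80%. The 8 copies of RF00017 with a mean of at least 100 FPKM varied by a median of 42.5%, the 13 of U1 by 51.0% and the 6 of U2 by 76.9%, against 25.1% for the 8 7SK copies. The last 3 families were low, with 295 FPKM over 393 copies of RF00026 (U6), 60.4 FPKM over RF00009 (RNase P RNA) and 23.6 FPKM over RF00019 (Y RNA). The families share their libraries, and these differences were not tested. Levels of RNAs of different classes also depend on library preparation, so low FPKM here need not mean little RNA in the lung.

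The remaining 200 copies together held 222 to 378 FPKM per library. Of them, 5 had a mean of 10 to 100 FPKM and held 0.739% of the family's FPKM, 46 had 1 to 10 FPKM (0.515%), 74 had 0.1 to 1 FPKM (0.142%) and 75 had less than 0.1 FPKM (0.0159%). All 208 copies were above 0 in at least 1 library, 103 were above 0 in all 6 and 34 in only 1. Per library, 145 to 157 copies were above 0 and 54 to 61 reached 1 FPKM. The median copy rested on an estimated 3.02 reads per library, and 63 copies rested on less than 1 read on average, so their levels are at the limit of what this depth can measure.

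The 208 copies were single exons of 57 to 360 bases (median 291) on 21 chromosomes, with the most on chromosome 1 (27 copies), 2 (18), 5 (17), 4 (15) and 10 (14). A high number of copies did not always go with a high level. Chromosome 5, with 17 copies, reached a mean of at most 4.77 FPKM, and chromosome 8, with 8 copies, held the leading one. Chromosomes 1 and 2, with the most copies, reached 731 and 1852 FPKM. A relation between number and level was not tested. All 8 leading copies were 293 to 338 bases long. Of the 108 copies of at least 290 bases, 35 (32.4%) had a mean of at least 1 FPKM, against 19 of 86 (22.1%) with 200 to under 290 bases and 5 of 14 (35.7%) with fewer than 200 bases. A length of at least 290 bases was thus shared by the leading copies and by 100 copies that were not among them.

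By position, 106 copies lay outside annotated multi-exon genes, 48 within the span of such a gene on its strand and 54 within the span of a gene on the opposite strand. The median level was 0.117 FPKM outside genes, 0.493 FPKM on the same strand and 0.709 FPKM on the opposite strand, although 5 of the 8 leading copies lay outside genes. For 66 copies, the span of an assembled transcript, introns included, overlapped the copy. Whether its exons did was not checked. The table does not separate reads of such a transcript or of a host gene from those of the copy. Whether strand was used in the estimates was not given in the sources used here, so this holds for copies on the opposite strand too.

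Most low values were built from whole bases. Of 833 values above 0 with a coverage under 100, 757 (90.9%) gave a whole number of covered bases within 0.01 base when multiplied by the length, and 76 values, in 23 of 198 copies, did not. One pair of chromosome 1 copies, ENSRNOT00000089621 at chr1:90959650-90959958 and ENSRNOT00000091627 at chr1:88769417-88769725, had values equal within 1% in every library, at 0 to 0.360 FPKM. Another copy, ENSRNOT00000089687 at chr18:4314467-4314748, measured 8.96 FPKM in model sample 3 and 0.0107 to 0.198 FPKM in the other 5 libraries. These copies were singled out after their values were seen.

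The design asked whether the level of RNAs differed between fibrotic and control lungs. In lung tissue measured as a whole, fewer cells of a type and less RNA per cell cannot be told apart. The summed 7SK level averaged 20239 ± 2762 FPKM (SD, n = 3) among control rats and 19999.5 ± 1696 FPKM (SD, n = 3) among model rats, a log2 ratio of -0.017, with a two-sided exact permutation p of 0.9. With 3 rats against 3 this test cannot give a p below 0.1. The difference in the sum was smaller than the spread between rats, and its sign turned under other scalings, with a log2 ratio of 0.077 after rescaling to TPM. Without the leading copy the sum was 11929 ± 1635 FPKM in control and 10775.5 ± 1003 FPKM in model samples (exact permutation p = 0.5, n = 3 each). The leading copy held 41.0 ± 3.32% of the sum in control and 45.9 ± 7.00% of it in model samples, a difference of 4.88 percentage points (exact permutation p = 0.4, n = 3 each). The share of RF00100 in all FPKM was 3.62 ± 0.273% in control and 3.82 ± 0.421% in model samples (exact permutation p = 0.6, n = 3 each).

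Each copy was then compared in a fit over all transcripts above 0 in at least 3 libraries, which 157 of the 208 copies and 64867 transcripts in all satisfied, while 51 copies were not tested. On the log2(FPKM + 1) scale the leading copy differed by 0.14 between model and control samples, with a standard error of 2.88 when the variance followed the level (limma with trend, adjusted p = 0.998) and of 0.219 without that trend. With the trend kept, the standard error was 0.277 among transcripts with a mean of at least 1 FPKM and 0.572 among annotated transcripts alone, so it depended on which transcripts entered the fit. Adjusted p-values of the 8 leading copies (limma, Benjamini-Hochberg over all transcripts tested) lay between 0.945 and 0.9999. The chromosome 18 copy ENSRNOT00000083070 had 1032 ± 161 FPKM in control and 622 ± 127 FPKM in model samples (SD, n = 3 each), a log2 ratio of -0.73. Its difference did not pass the test in the limma fit with trend (p = 0.107, adjusted p = 0.945), and its exact permutation p of 0.1 is the smallest that 3 against 3 can give. Its unadjusted limma p was 0.0113 without the trend (adjusted p = 0.942), and with the trend it was 0.0181 among transcripts with a mean of at least 1 FPKM (adjusted p = 0.940) and 0.0194 among annotated transcripts alone (adjusted p = 0.967). Its log2 ratio stayed under the threshold of 1. As a share of the family it was 5.64%, 4.60% and 5.07% in control and 4.02%, 2.79% and 2.59% in model samples, without overlap (exact permutation p = 0.1, n = 3 each). This share rests on the same FPKM of the copy, so it is not a separate result.

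A copy was called when its unadjusted limma p was at most 0.05 and its group means differed by at least 1 on the log2 scale. Of the 157 copies tested, 6 (3.82%) were called, against 2.98% of all transcripts tested. Of these, 3 were higher in model samples (background 1.22%) and 3 were lower (background 1.76%). At an unadjusted p of at most 0.05 alone there were 7 copies (4.46%, background 4.53%), and at an adjusted p below 0.05 there were 0 (background 0.0277%). The groups did not overlap in 17 copies (10.8%, background 10.4%), with model samples higher in 8 (background 4.12%) and lower in 9 (background 6.29%). The fitted difference was below 0 in 81 copies (51.6%, background 55.4%), and its median was -0.01 against -0.02 over all transcripts. With all 6 libraries these shares lay near those of all transcripts. Without model sample 3, the library with the heart muscle genes, 11 of 148 copies (7.43%) were called, against 3.27% of all transcripts in that fit, and 5 of the 6 copies were among them.

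**Figure D4:**
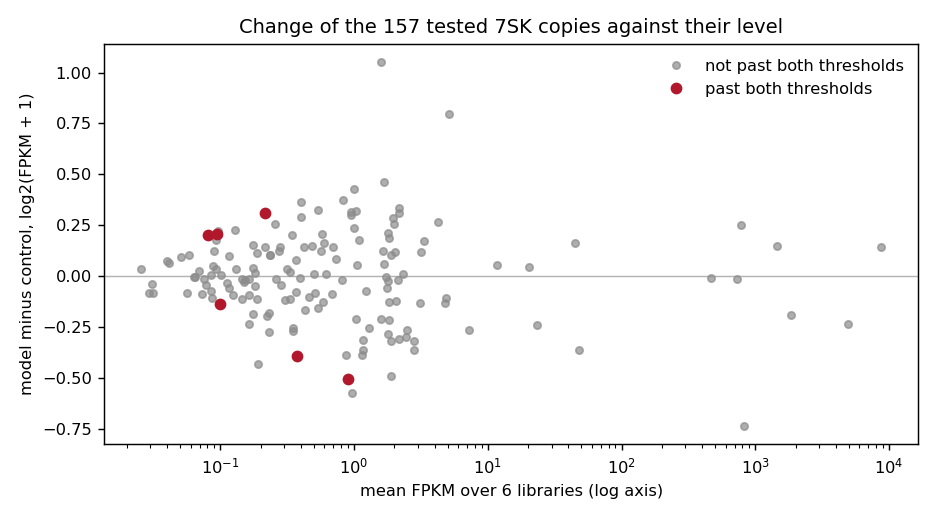
Difference between PF model and control samples on the log2(FPKM + 1) scale against mean FPKM (log axis) for the 157 tested copies, with the 6 copies past both thresholds in red. All 6 lie below 1 FPKM, and the 8 copies of at least 100 FPKM are not among them.

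The 6 called copies were all low, with means of 0.0808 to 0.897 FPKM and estimated reads of at most 18.1 in any library. All 6 had an adjusted p of 0.945 (limma), so none would remain after correction. The copy with the most reads was ENSRNOT00000077905 at chr5:128800301-128800560, on the strand and within the span of Osbpl9, a lipid-binding protein gene. It measured 1.09, 1.16 and 1.42 FPKM in control and 0.439, 0.667 and 0.598 FPKM in model samples, a difference of -0.50 on the log2(FPKM + 1) scale (SE 0.14, limma adjusted p = 0.945). Osbpl9 itself stood at 18.4 ± 2.81 FPKM in control and 16.0 ± 1.76 FPKM in model samples, a log2 ratio of -0.20, and how far its reads reach into the copy was not tested.

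The other copies that were lower in model samples were ENSRNOT00000086913 and ENSRNOT00000080970. The first, at chr7:64952092-64952374 and opposite to Irak3, an inhibitor of Toll-like receptor signalling, measured 0.549, 0.516 and 0.601 FPKM in control and 0.254, 0.319 and 0 FPKM in model samples. The second, at chr1:69630339-69630619 and 426 bases from Zfp418, measured 0.127, 0.183 and 0.143 FPKM in control and 0.0592, 0.0329 and 0.0521 FPKM in model samples. Both had groups that did not overlap, and the second rested on an estimated 0.407 to 2.19 reads per library.

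The copies that were higher in model samples were ENSRNOT00000088479, ENSRNOT00000082093 and ENSRNOT00000087309. ENSRNOT00000088479 at chr4:132010546-132010844 measured 0.113, 0 and 0.132 FPKM in control and 0.554, 0.301 and 0.186 FPKM in model samples. ENSRNOT00000082093 at chr17:50959560-50959808 measured 0, 0 and 0.0466 FPKM in control and 0.120, 0.157 and 0.245 FPKM in model samples. ENSRNOT00000087309 at chr1:69687340-69687515 measured 0, 0 and 0.0101 FPKM in control and 0.284, 0.0939 and 0.0972 FPKM in model samples. This copy lay on the strand and within the span of the gene AABR07002247.1, which stood at 0.932 to 1.69 FPKM with a log2 ratio of -0.34. How far reads of that gene reach into the copy was not tested. ENSRNOT00000082093 and ENSRNOT00000087309 passed the filter of at least 3 libraries above 0 only through the model samples, where they were high.

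No library held more than an estimated 8.03 reads on any of these copies. ENSRNOT00000087309 rested on 0.67 estimated reads per library on average and ENSRNOT00000082093 on 1.09. The former lay near the called copy ENSRNOT00000080970 on the same strand of chromosome 1, and the fitted differences of the pair had opposite signs, at 0.20 and -0.13 on the log2(FPKM + 1) scale. The seventh copy at an unadjusted p of at most 0.05, ENSRNOT00000088157 at chr5:61714506-61714811, lay opposite to Tstd2 and measured 3.45, 3.18 and 3.18 FPKM in control and 2.60, 1.98 and 2.39 FPKM in model samples (limma adjusted p = 0.945). Tstd2 stood at 4.54 ± 0.0906 FPKM in control and 4.85 ± 0.514 FPKM in model samples, so its mean was higher where that of the copy was lower.

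Among 3218 transcripts with a mean of at least 10 FPKM, the 5 outside the family whose log2(FPKM + 1) followed the leading copy most closely over the 6 libraries were transcripts of Chd3 (Pearson r of 0.986), Limch1 (0.979), Serping1 (0.969), Sftpa1 (0.967) and Lbh (0.967). The Chd3 transcript, from a gene for a chromatin remodeller, measured 11.3, 10.4 and 7.86 FPKM in control and 9.16, 11.2 and 14.8 FPKM in model samples, in the same order of libraries as the leading copy. The 5 were picked as the highest of 3218 values over 6 points that share libraries and depth, and the correlations are given as a description only.

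The proteins that work with 7SK were measured as genes. Of 43 listed genes, 41 were found in the table, and Ppm1g and Aff4 were not analysed here. None of the 41 was called (0 in the limma fit, background 1.74%), 1 had an unadjusted p of at most 0.05 (background 4.42%) and 0 had an adjusted p below 0.05 (background 0.00979%). None of the 4 genes of the 7SK particle passed the test. Larp7, which binds the end of 7SK, measured 3.05, 2.62 and 2.68 FPKM in control and 2.57, 2.54 and 2.51 FPKM in model samples, with groups that did not overlap and a difference of -0.10 on the log2(FPKM + 1) scale (SE 0.10, limma adjusted p = 0.947). Mepce, which caps 7SK, stood at 3.67 ± 0.708 and 3.57 ± 0.525 FPKM in control and model samples (SD, n = 3 each). Hexim1, the P-TEFb inhibitor, stood at 19.6 ± 1.66 and 18.9 ± 1.06 FPKM, and its relative Hexim2 at 3.70 ± 0.247 and 3.86 ± 0.413 FPKM.

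The 3 genes of P-TEFb did not pass the test either. The kinase gene Cdk9 stood at 12.3 ± 0.686 FPKM in control and 13.4 ± 0.912 FPKM in model samples. Its cyclins Ccnt1 and Ccnt2 stood at 4.91 ± 0.0456 and 9.85 ± 0.534 FPKM in control and at 4.71 ± 0.519 and 10.3 ± 0.702 FPKM in model samples. The summed level of 7SK was thus far above that of each of its protein genes on the FPKM scale, which for RNAs of different classes also depends on library preparation.

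Among 9 other proteins known to bind 7SK, the fitted difference was below 0 in 8 (background 51.4%). This count was 8 under each of 3 other scalings (background 38.1% to 43.5%). Model sample 3, the library with the heart muscle genes, was the lowest for Hnrnpa1, Hnrnpa2b1, Hnrnpr, Syncrip, Srsf1, Srsf2 and Ssb. For Syncrip, Srsf1 and Ssb the other model samples lay within the control range. How far the count rests on this library was not tested. The 1 gene at an unadjusted p of at most 0.05 was Hnrnpa1, an RNA-binding protein of nuclear RNA, which measured 27.1, 28.1 and 29.0 FPKM in control and 25.5, 22.6 and 21.1 FPKM in model samples. Its difference was -0.28 on the log2(FPKM + 1) scale (SE 0.08, limma adjusted p = 0.944), and after rescaling to TPM it no longer passed the unadjusted threshold. Over all 41 genes the difference was below 0 in 27 (background 51.4%), and after rescaling to TPM it was below 0 in 18 (43.9%, background 38.1%). Among genes for P-TEFb release and super elongation it was below 0 in 6 of 9, among pausing factors in 4 of 6 and among RNA polymerase III factors in 5 of 10, and under TPM these counts were 4, 1 and 4. The groups did not overlap in 5 genes (12.2%, background 10.1%), all lower in model samples (background 5.35%), which were Larp7, Hnrnpa1, Mllt3, Snapc3 and Bdp1. This count turned with the scaling, since under TPM the groups did not overlap in 2 genes, both higher in model samples, in 0 genes when scaled without small RNAs, and in 3 genes, all lower, by the median ratio.

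**Figure D5:**
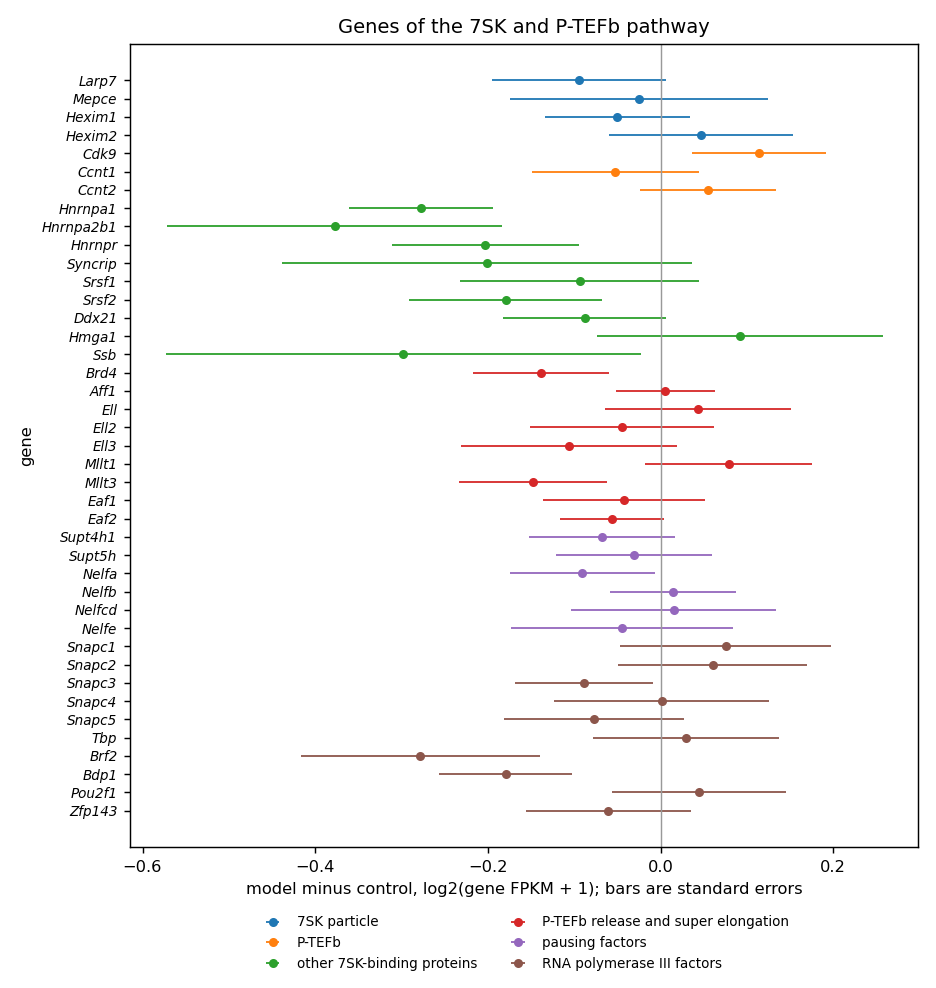
Difference between PF model and control samples on the log2(gene FPKM + 1) scale with its standard error for 41 genes of the 7SK and P-TEFb pathway, coloured by group. Values lie between -0.38 and 0.11, and 8 of the 9 other 7SK-binding proteins lie below 0, against 51.4% of all genes tested.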

How the data were processed

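Total RNA depleted of ribosomal RNA was sequenced from lungs of 3 control and 3 PF model rats. For linear RNAs the authors mapped trimmed reads with Bowtie2 and Tophat2, assembled transcripts with StringTie and deposited FPKM for each transcript, with the per-base coverage, a signal not normalized for library size, beside it. The submitters' processing notes name HISAT2, StringTie and TopHat. The genome build and the treatment of reads with several matches were not given in the sources used here, so coordinates are those of the deposited table, counted from 1. No sequence of the copies was used here. The deposited circular RNA table was not used, since it names no RF00100 gene.

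Groups follow the condition given by the labels. The groups were tested by limma 3.58.1 (trend on, two-sided) in R 4.3.3 on log2(FPKM + 1), for transcripts above 0 in no fewer than 3 of the 6 libraries, with Benjamini-Hochberg adjustment over all of them. Following the thresholds of the study, a transcript was called where the unadjusted p did not exceed 0.05 and the mean FPKM of the groups differed by 1 or more on the log2 scale. Genes of the pathway were tested the same way among 20421 genes, with gene FPKM as the sum of FPKM times length over the length of the longest transcript. For single values per library, two-sided exact permutation tests were used (scipy 1.17.1). A fold on the log2(FPKM + 1) scale understates the change of low copies. Reads were estimated as coverage times length over 150 bases and are not counts. The exact permutation p-values rest on the spread between these rats. The limma p-values also draw on the variances of other transcripts or genes. Those of the leading copies thus depended on which transcripts entered the fit.

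The text names the 10 copies of highest mean, each copy called or at an unadjusted p of at most 0.05, the 7 core pathway genes, 7 other Rfam families and the 5 transcripts most like the leading copy. The members and lists were chosen with earlier results of these data known. Alternatives were another pseudocount, other filters and scalings, coverage in place of FPKM, annotated transcripts alone, a fit without trend, a plain sum of transcripts for genes, a replicate block and leaving out each rat.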

Additional observations from a re-analysis of the deposited data

How the results depend on the processing

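The exact tests cannot reach 0.05 with 3 rats against 3, so for sums and shares only the direction was followed. The 6 called copies became 0 among copies with a mean of at least 1 FPKM, since all 6 lie under that mean, and 2 in limma without trend, where the cause was not tested. Leaving out 1 rat gave 6 to 11 called copies, from 6 of 152 (3.95%, all transcripts 3.39%) without control sample 2 to 11 of 148 (7.43%, all transcripts 3.27%) without model sample 3, and 2 to 5 of the 6 copies were among them. The summed FPKM turned from a log2 ratio of -0.017 to 0.077 after rescaling to TPM, 0.043 when scaled without small RNAs and 0.028 when scaled by the median ratio, and lay between -0.12 and 0.064 with 1 rat left out. With 1 rat left out, the sum without the leading copy gave -0.23 to -0.037, the leading copy -0.016 to 0.30 on the log2(FPKM + 1) scale, its share 2.06 to 8.80 percentage points and the share of the family in all FPKM -0.045 to 0.32 percentage points. The last turned without model sample 3. No pathway gene was called under any alternative.

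Among the other named copies, ENSRNOT00000082519 turned to 0.073 under TPM, 0.043 without small RNAs and 0.035 by the median ratio, and ENSRNOT00000088275 to 0.074, 0.043 and 0.035. With 1 rat left out, ENSRNOT00000082519 gave -0.59 to 0.53, ENSRNOT00000088275 -0.17 to 0.12, ENSRNOT00000082957 -0.11 to 0.58, ENSRNOT00000078225 -0.056 to 0.60, ENSRNOT00000090556 -0.97 to 0.24 and ENSRNOT00000087707 -0.11 to 0.51. In all, 39 of 250 alternative values of these copies changed their call or sign.

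In the labels, rats of the 2 groups share only a number. Deviations of same-numbered rats from their group means correlated by 0.0066, 0.050 and -0.043 over 45808 transcripts. Control samples 1 and 3 correlated more with a rat of another number, and control sample 2 most with model sample 2. Deviations within a group add up to 0, so these correlations depend on each other and cannot decide whether the number pairs rats. With the replicate block 6 copies and 0 pathway genes were called, but only 4 of these copies were called without it, since ENSRNOT00000080970 and ENSRNOT00000087309 gave way to 2 others, and the summed FPKM kept its log2 ratio of -0.017. Estimated reads limit the low copies, since 63 of 208 rest on less than 1 read per library.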
